A study of Homo sapiens with 2 samples.

Results

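The 59 genes described here encode enzymes that add or remove methyl and acetyl groups on histones, the Polycomb and SWI/SNF complexes, the remodellers CHD4 and CHD7 and the maintenance DNA methyltransferase DNMT1. They were chosen by name, not by their values, and all 59 were found among the 39720 gene symbols of the count table. The genes fall into 8 classes: 7 H3K4 methyltransferases, 6 other histone methyltransferases, 4 subunits of Polycomb repressive complex 2, 13 demethylases, 7 deacetylases, 8 acetyltransferases, 11 SWI/SNF subunits, and a group of 3 with CHD4, CHD7 and DNMT1. RNA was sequenced from A549 cells, an established human lung adenocarcinoma line, infected for 2 days with lentivirus that carried either a control hairpin (shNC) or one targeting DEPDC1B (shDEPDC1B). Both groups received 5 µg/mL polybrene, each has 1 library, and the sources used here do not name the hairpins' sequences. No difference below therefore has a replicate check, no p-value is given, and what is compared is 2 libraries.

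Histones are wrapped by DNA, and chemical marks on their tails help set which genes are read. Methyltransferases write marks such as H3K4 methylation at active promoters and enhancers or H3K27 methylation at silenced genes, demethylases erase them, acetyltransferases loosen chromatin and deacetylases reverse this. SWI/SNF complexes use ATP to slide or evict nucleosomes, and their subunits are among the genes most often mutated in human cancer. A549 is known to lack functional SMARCA4 protein, so its SWI/SNF complexes rely on the sister ATPase SMARCA2.

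The libraries held 18647290 counts in shNC and 18862371 in shDEPDC1B. DEPDC1B itself had 329 and 39 counts, which leaves 12.5% [8.75, 17.5] of the shNC level. Brackets hold exact 95% intervals of counting error only. The epithelial keratin gene KRT8 had 106007 and 103507 counts, and 5 epithelial markers together were at 10826 and 11199 scaled CPM (counts relative to library size). Nearly all of that sum came from KRT8 and KRT18 (99179 and 97608 counts). CDH1 had 3078 and 2649 counts, KRT19 had 429 and 475, and EPCAM only 37 and 65. The 5 leukocyte markers summed to 36.2 and 27.7 CPM, nearly all from CD68 (690 and 495 counts), with PTPRC at 0 and 2 counts and CD3E at 0. The 5 fibroblast markers summed to 9.44 and 11.8 CPM, mostly COL1A1 (99 and 105 counts) and COL3A1 (80 and 105), with DCN at 0. The 5 endothelial markers summed to 0.726 and 0.603 CPM, with KDR at 0. Their part in the results was not tested. In bulk RNA, fewer cells with a transcript and less of it per cell cannot be told apart.

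In the shDEPDC1B library, the acetyltransferase gene KAT6A and the SWI/SNF genes ARID1B and ARID1A stood lowest, while the deacetylase HDAC1, the acetyltransferase KAT5 and the Polycomb methyltransferase EZH1 stood highest. KAT6A was 4.39-fold lower, ARID1B 4.31-fold lower and ARID1A 3.30-fold lower. KAT5 was 2.20-fold higher, EZH1 2.01-fold higher and HDAC1 1.93-fold higher. A gene was called higher or lower when its scaled counts differed at least 1.5-fold and the interval excluded equality. By this rule 8 of the 59 genes were higher and 20 lower. Among all 13850 genes with 30 counts or more in the higher library, 19.2% were higher and 19.6% lower, 38.8% in all. At 2-fold, KAT5 and EZH1 were higher and 12 genes lower, against 5.86% and 8.97% of all genes. EZH1 lay just inside 2-fold and fell short of it under each other scaling of the libraries. The interval excluded equality for 53 of the 59 and for 73.8% of all genes. Counting intervals narrow as counts rise, and these shares were not matched for count level. The median log2 ratio, shDEPDC1B over shNC, was -0.26 over the 59 genes and 0.04 over all genes assessed. All 59 passed the filter, and the least abundant, EHMT2, had 127 counts in its higher library. With libraries scaled by their totals, 61.2% of called genes in the whole table were lower, against 50.4% here, and of the 59 genes 7 were higher and 24 lower.

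**Figure D1:**
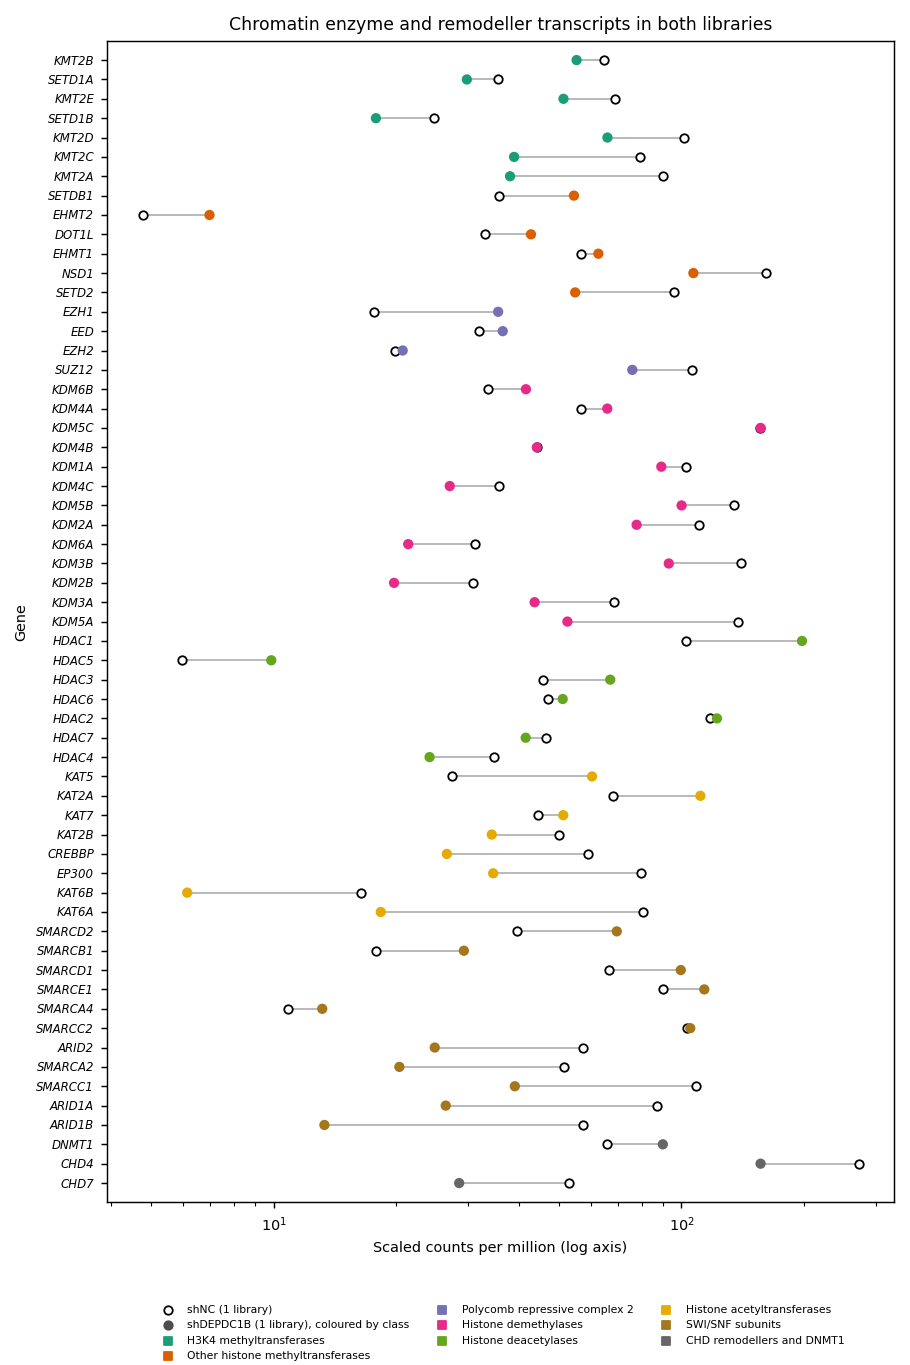
Scaled CPM, counts relative to library size (log axis), of each gene in the shNC library (open circles) and the shDEPDC1B library (filled circles, coloured by class), 1 library each, ordered by ratio within a class. The longest lines to the left belong to KAT6A, from 80.4 to 18.3, and ARID1B, from 57.4 to 13.3.

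Bases upstream of a transcript start are shown for 4 genes. These genes stood highest and lowest among 15 whose RefSeq start lay within 20 nt of the start of their GENCODE transcript. Of the 59 genes 51 matched the RefSeq table (build GRCh38.p14), and SETD1B, DOT1L, HDAC5, KAT6A, ARID2, SMARCC1, SMARCC2 and CHD7 did not. Each run covers 200 bases, from 250 to 51 bases before the start, 5′ to 3′ on the gene's strand. Capitals mark the CCAAT box (CCAAT), the GC box (GGGCGG) and the ETS core (CCGGAAG), searched on both strands and counted where they overlap.
EZH1 (chr17:42745091-42745290, minus strand): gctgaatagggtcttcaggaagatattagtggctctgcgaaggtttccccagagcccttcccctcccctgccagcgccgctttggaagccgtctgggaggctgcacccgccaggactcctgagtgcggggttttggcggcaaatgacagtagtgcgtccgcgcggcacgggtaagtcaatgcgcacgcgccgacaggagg
HDAC1 (chr1:32291833-32292032, plus strand): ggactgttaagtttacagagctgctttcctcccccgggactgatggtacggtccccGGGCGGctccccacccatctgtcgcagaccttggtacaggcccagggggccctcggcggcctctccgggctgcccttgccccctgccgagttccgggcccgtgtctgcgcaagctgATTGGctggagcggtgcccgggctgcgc
ARID1B (chr6:156775776-156775975, plus strand): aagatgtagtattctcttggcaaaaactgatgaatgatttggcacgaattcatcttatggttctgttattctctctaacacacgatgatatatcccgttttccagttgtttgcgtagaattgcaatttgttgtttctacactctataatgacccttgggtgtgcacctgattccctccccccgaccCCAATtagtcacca
ARID1A (chr1:26695765-26695964, plus strand): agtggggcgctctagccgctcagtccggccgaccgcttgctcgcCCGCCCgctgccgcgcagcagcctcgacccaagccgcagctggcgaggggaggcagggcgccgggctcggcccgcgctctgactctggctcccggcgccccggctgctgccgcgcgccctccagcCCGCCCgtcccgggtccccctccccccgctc

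HDAC1 holds 1 CCAAT box and 1 GC box, ARID1B 1 CCAAT box, ARID1A 2 GC boxes, and EZH1 none of the 3 motifs in this window. The ARID1A run lies inside the gene's annotated span (chr1:26693236-26782110), upstream of the start of the transcript used here and not of the whole gene. The ARID1B run lies upstream of 1 of 2 starts in the table, and read counts per gene do not show which start was used. A GC box was found in 26 of the 51 windows and in 35.0% of all 35116 windows of the table. By call, it was in 1 of 7 genes that were higher, 11 of 16 that were lower and 14 of 28 that were neither. Shares by call were not computed over all genes, and a relation of the GC box to the calls was not tested. The 35116 windows were not limited to assessed genes. Only 15 of the 51 windows lay upstream of a start within 20 nt of the GENCODE start. The CCAAT box was in 13 of 51 windows, against 27.4% of all, and the ETS core in 3, against 5.13% of all. The cyclic AMP response element (TGACGTCA) and the palindromic NRF1 motif were in none of the 51, and in 0.951% and 0.524% of all windows.

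All 7 genes placed in the H3K4 methyltransferase class had a ratio below 1, and 3 of them were lower by the rule. Over all 13850 genes assessed, 6662 had a ratio below 1 and 19.6% were lower. The genes were grouped by name, and enzyme activity, that of KMT2E included, was not measured. KMT2A, the founding member of the mixed lineage leukaemia family, lies at chr11:118436464-118526832 (GRCh38, GENCODE 29, as are all gene positions here) and had 1733 counts in shNC and 693 in shDEPDC1B. Its log2 ratio was -1.24 [-1.37, -1.11]. KMT2C, which with KMT2D marks enhancers, had 1522 and 709 counts, a log2 ratio of -1.02 [-1.15, -0.89]. KMT2D had 1957 and 1201 counts and a log2 ratio of -0.62 [-0.73, -0.52]. The other 4 lay between -0.22 (KMT2B) and -0.47 (SETD1B), each with an interval below 0. SETD1A and SETD1B, which deposit much of the promoter mark H3K4me3, were at -0.26 and -0.47, and KMT2E at -0.42. The transcripts of this class are long, with a median of 8469 nt, and none of the 7 was called after a linear fit of the log2 ratio on transcript length and GC content over all genes.

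The other methyltransferases went both ways. SETD2, which writes H3K36me3 along transcribed genes, had 1849 and 1001 counts, and NSD1, which writes H3K36me2, had 3106 and 1951, both lower. Their log2 ratios were -0.81 [-0.92, -0.69] and -0.59 [-0.67, -0.51], and the fit on length and GC put NSD1 at 0.036, on the other side of 0. SETD2 was at -0.29 after that fit and no longer called. On the wider list of chromatin genes, NSD2, another H3K36 methyltransferase, was at 0.11 before the fit and not called. Its relatives NSD3 (-1.01) and ASH1L (-1.51) were lower. After the fit NSD2 was at 0.60 and called higher, NSD3 at -0.36 and not called, and ASH1L at -0.85 and still lower. With the transcript of the longest coding sequence in the fit, NSD2 was at 0.22 and not called. The H3K9 methyltransferase SETDB1 had 688 and 994 counts, a log2 ratio of 0.61 [0.47, 0.75]. It was the only called gene of this class in the upward direction, and it fell short of 1.5-fold with DESeq2 size factors (0.56) or library totals (0.51). The H3K79 methyltransferase DOT1L was at 0.38 and the H3K9 enzyme EHMT1 at 0.14, both under 1.5-fold. Its partner EHMT2 had 92 and 127 counts and was at 0.54 [0.15, 0.95]. The deposited EHMT2 value seems to average 7 gene copies, so its counts and interval are uncertain.

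Within Polycomb repressive complex 2, which methylates H3K27, EZH1 was the member that differed by at least 1.5-fold. EZH1 (chr17:42700275-42745049), the catalytic subunit that predominates in non-dividing cells, had 340 counts in shNC and 648 in shDEPDC1B, a log2 ratio of 1.01 [0.82, 1.20]. EZH2, the catalytic subunit of dividing cells, had 383 and 378 counts, a log2 ratio of 0.06 [-0.15, 0.27], so that no difference could be seen at this depth. Its sign was negative with libraries scaled by their totals (-0.04). Per kb of transcript, EZH1 stood at 0.507 times the level of EZH2 in shNC and at 0.979 times in shDEPDC1B. These levels used an EZH1 transcript of 4623 nt, while its transcript with the longest coding sequence has 2501 nt. EZH2 has 2639 nt by either choice. The levels of EZH1 against EZH2 thus depend on the transcript, and were not computed with the shorter one. The scaffold EED was at 0.19 [0.03, 0.35]. SUZ12 was at -0.49 [-0.59, -0.39], under 1.5-fold, while its partial copy SUZ12P1, with which it may share reads, had 183 and 275 counts and was at 0.67 [0.39, 0.95].

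Of 13 histone demethylase genes, 4 were lower and none higher, and 10 had a ratio below 1, not counting KDM5C, whose sign depended on the scaling. Over all genes assessed 19.6% were lower and 19.2% higher, and 6662 of 13850 had a ratio below 1. The H3K4me3 demethylase KDM5A (chr12:280129-389454) stood lowest, with 2649 counts in shNC and 958 in shDEPDC1B, a log2 ratio of -1.39 [-1.50, -1.28]. The H3K9 demethylases KDM3A, known to be induced by hypoxia, and KDM3B were at -0.65 and -0.59, and the H3K36 demethylase KDM2B at -0.64. KDM3B lay just inside 1.5-fold, and just outside were KDM6A at -0.54 [-0.73, -0.36] and KDM2A at -0.51. KDM5C had 2997 and 2852 counts and a log2 ratio of 0.01 [-0.07, 0.08], with the opposite sign under each of 4 other scalings. KDM4B was at -0.0019 [-0.14, 0.14], KDM4C at -0.41 [-0.57, -0.24] and KDM5B at -0.43 [-0.51, -0.34], none of them called. KDM6B and KDM4A had ratios above 1, at 0.31 and 0.21. KDM1A, or LSD1, the flavin-dependent H3K4 demethylase, was at -0.20 [-0.30, -0.11] and by CPM per kb it ranked 3 and 4 among the 59 genes in shNC and shDEPDC1B. After the length and GC fit, KDM5A was the only demethylase still called, at -0.75.

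Of 7 deacetylase genes 2 were higher and none lower, where 19.2% of all genes assessed were higher and 19.6% lower. HDAC1 (chr1:32292086-32333635), the class I deacetylase of the NuRD, Sin3 and CoREST complexes, had 1976 counts in shNC and 3603 in shDEPDC1B. Its log2 ratio was 0.95 [0.87, 1.03], and per kb of transcript it was the most abundant of the 59 genes in both libraries. HDAC5, a class IIa enzyme, had 115 and 180 counts, a log2 ratio of 0.73 [0.38, 1.08]. HDAC3, the deacetylase of the NCoR complex, had 882 and 1220 counts and at 0.55 [0.42, 0.67] fell just short of 1.5-fold. HDAC2 was at 0.06 [-0.03, 0.14], and its sign differed when libraries were scaled by their totals (-0.04). HDAC6, which acts on tubulin, was at 0.12, HDAC7 at -0.16 and HDAC4 at -0.53 [-0.70, -0.35].

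Acetyltransferase genes differed most within their class, from -2.14 to 1.14. Of the 8, 4 were lower and 2 higher, against 19.6% and 19.2% of all genes assessed. KAT6A (MOZ) had 1551 counts in shNC and 334 in shDEPDC1B, a log2 ratio of -2.14 [-2.31, -1.96], the lowest of the 59. Its paralog KAT6B (MORF) had 315 and 112 counts and was at -1.41 [-1.74, -1.10]. CREBBP (chr16:3725054-3880726) and EP300 (chr22:41091786-41180079), the paired coactivators that acetylate H3K27 at enhancers, had 1136 and 485 counts, and 1530 and 630 counts. Their log2 ratios of -1.15 [-1.30, -0.99] and -1.20 [-1.34, -1.07] overlapped. KAT5, or TIP60 (chr11:65711996-65719604), known for its part in the DNA damage response, went from 529 to 1101 counts. Its log2 ratio of 1.14 [0.99, 1.29] was the highest of the 59. KAT2A, the acetyltransferase of the SAGA complex, had 1313 and 2030 counts and was at 0.71 [0.61, 0.81], while its paralog KAT2B was at -0.55 [-0.69, -0.40]. KAT7 was at 0.20 [0.07, 0.34].

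Of 11 SWI/SNF subunit genes 5 were lower, each by at least 2-fold, and 2 higher. Over all genes assessed 19.6% were lower, 8.97% by at least 2-fold, and 19.2% higher. The DNA-binding subunits that define the complex types were lower: ARID1B (chr6:156776020-157210779) had 1107 counts in shNC and 243 in shDEPDC1B, and ARID1A (chr1:26693236-26782110) had 1683 and 482. Their log2 ratios were -2.11 [-2.31, -1.91] and -1.72 [-1.87, -1.58]. ARID2, the counterpart in the PBAF form, had 1103 and 453 counts and was at -1.20 [-1.37, -1.04]. The ATPase SMARCA2 (chr9:1980290-2193624) had 996 and 371 counts, a log2 ratio of -1.34 [-1.52, -1.17], and the core subunit SMARCC1 had 2095 and 712, a log2 ratio of -1.48 [-1.60, -1.35]. The ATPase SMARCA4, whose protein A549 cells are known to lack, had 209 and 240 counts and was at 0.28 [0.01, 0.55]. Per kb of transcript, SMARCA4 stood at 0.256 times the level of SMARCA2 in shNC and at 0.789 times in shDEPDC1B. These levels used transcripts of 5791 nt for SMARCA4 and 7061 nt for SMARCA2. Their transcripts with the longest coding sequence have 5512 and 5761 nt.

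The SWI/SNF genes called higher were SMARCD2 and SMARCB1. The accessory subunit gene SMARCD2 had 760 and 1266 counts, a log2 ratio of 0.82 [0.69, 0.95], and the core subunit SMARCB1, lost in rhabdoid tumours, had 344 and 534, a log2 ratio of 0.71 [0.52, 0.91]. SMARCD1 at 0.58 [0.48, 0.69] lay just under 1.5-fold, and SMARCE1 was at 0.33 [0.24, 0.43]. SMARCC2 had 1987 and 1917 counts and was at 0.03 [-0.06, 0.12], with the opposite sign when scaled by DESeq2 size factors (-0.02) or totals (-0.07). CHD4, the ATPase of the NuRD complex, had 5241 and 2851 counts and was at -0.80 [-0.86, -0.73], and CHD7, mutated in CHARGE syndrome, was at -0.89 [-1.05, -0.74]. DNMT1, which copies DNA methylation after replication, had 1269 and 1642 counts and was at 0.45 [0.35, 0.56], under 1.5-fold.

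**Figure D2:**
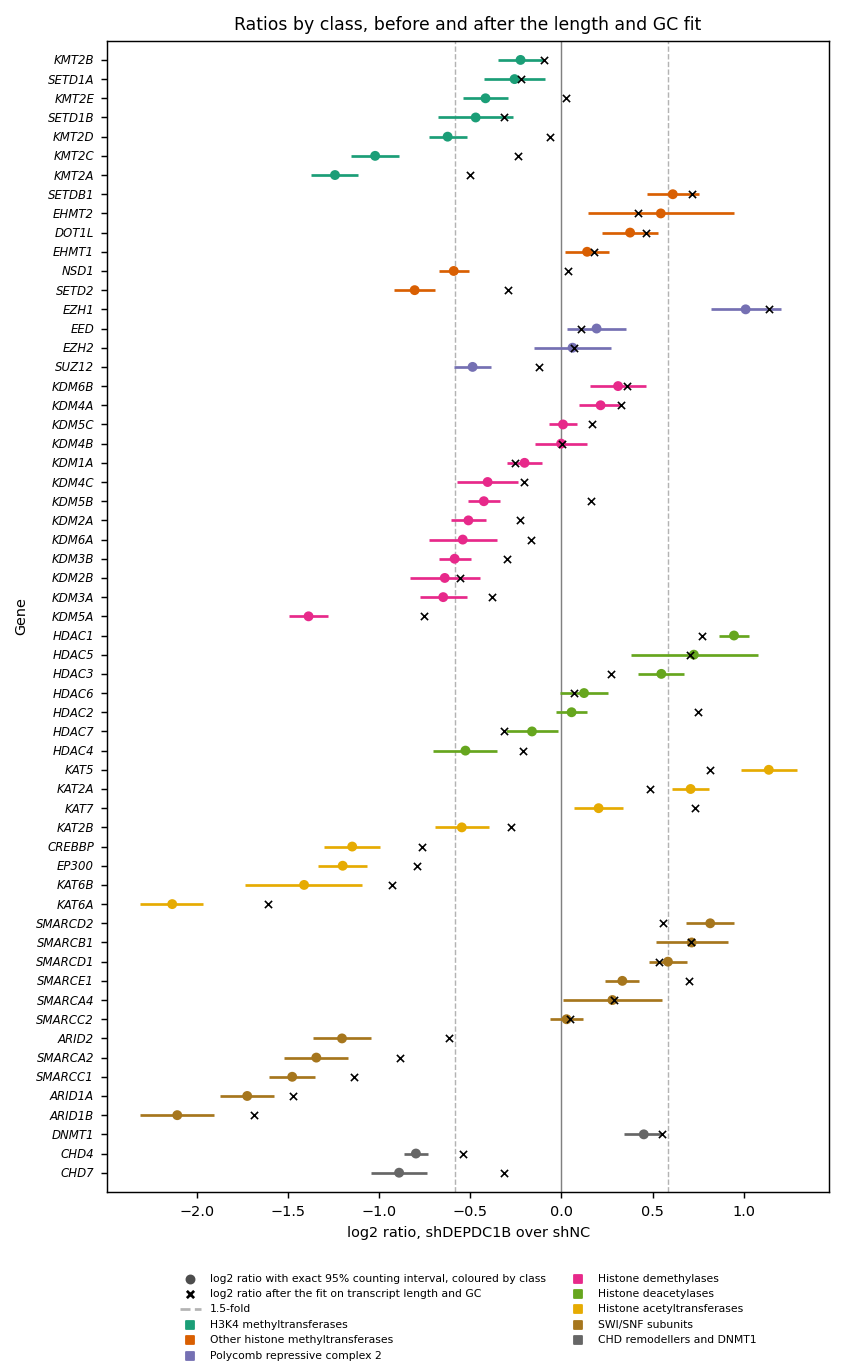
The log2 ratio of each gene (coloured points by class, with exact 95% counting intervals as bars) and its value after the fit on transcript length and GC content (black crosses), with dashed lines at 1.5-fold. The crosses of 5 SWI/SNF genes and 4 acetyltransferase genes lie left of the 1.5-fold line, while those of all 7 H3K4 methyltransferases lie inside it.

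The ratios moved with transcript length. The 20 lower genes had a median transcript of 8948 nt (the longest protein-coding transcript in GENCODE 29), the 8 higher genes 3773 nt and the other 31 genes 5703 nt. Spearman's correlation of log2 ratio with length was -0.69 over the 59 genes and -0.53 over 12293 protein-coding genes, where genes share the same 2 libraries and are not independent replicates. Of 13 genes with transcripts of 9000 nt or more, 10 were lower and none higher, while 54.8% of all protein-coding genes of that length were lower. Of 18 genes from 6000 to under 9000 nt, 8 were lower, against 41.9% of all such genes. Of 6 genes with transcripts under 3000 nt, HDAC1, KAT5 and SMARCD2 were higher, against 33.1% of all such genes. From 3000 to under 6000 nt, 5 of 22 were higher and 2 lower, against 515 and 967 of 4826 protein-coding genes. The part of length in these ratios was not tested beyond this fit, and with 1 library per group a difference in library preparation cannot be told apart from one between the hairpins.

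**Figure D3:**
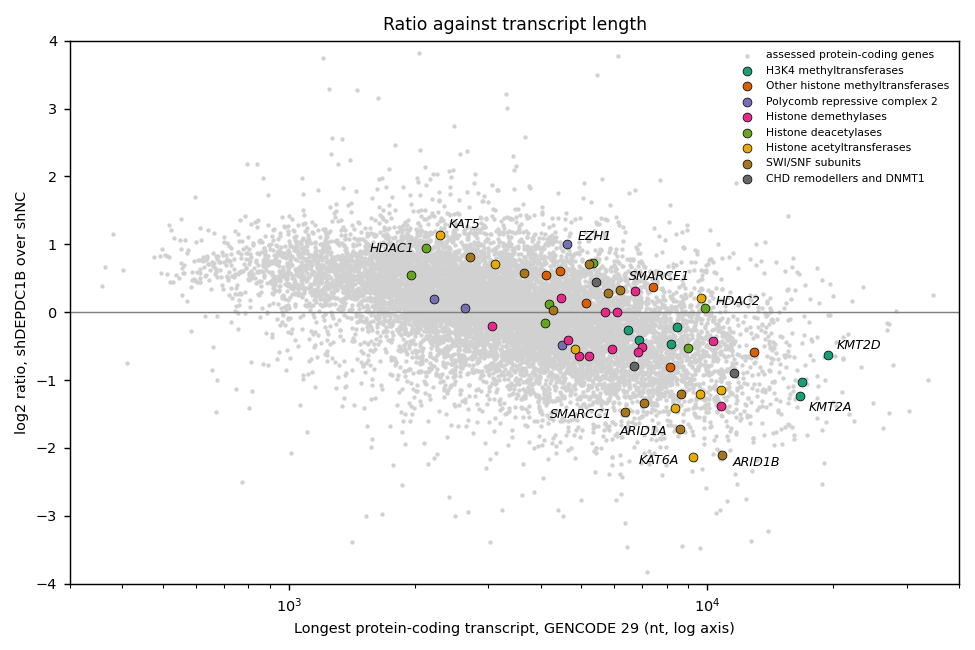
The log2 ratio (shDEPDC1B over shNC) against the length of the longest protein-coding transcript (nt, log axis), for all assessed protein-coding genes in grey and the 59 genes coloured by class. The plot leaves out 17 grey genes beyond a log2 ratio of 4 in either direction. KAT6A at -2.14 and ARID1B at -2.11 are the lowest coloured points, and the coloured points, like the grey, slope down to the right.

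After the length and GC fit, which took up 24.6% of the variance over 13013 genes, 9 of the 59 genes were higher and 10 lower, with a median of -0.062. Over all genes with a length the shares were 12.9% higher and 13.5% lower. The fit did not remove the relation among the 59: Spearman's correlation with length was still -0.48 over them, against -0.07 over all protein-coding genes. The 10 lower genes were all among the 20 lower before the fit. They were 5 of the SWI/SNF genes, ARID1B (-1.68), ARID1A (-1.47), SMARCC1 (-1.14), SMARCA2 (-0.89) and ARID2 (-0.62), 4 acetyltransferase genes, KAT6A (-1.61), KAT6B (-0.93), EP300 (-0.79) and CREBBP (-0.77), and KDM5A. The 9 higher genes were EZH1 (1.14), KAT5 (0.81), HDAC1 (0.77), HDAC2 (0.75), KAT7 (0.73), SETDB1 (0.71), SMARCB1 (0.71), HDAC5 (0.70) and SMARCE1 (0.70). HDAC2, KAT7 and SMARCE1 were not called before the fit, and have annotated transcripts of 9874, 9644 and 6196 nt. When the fit used the transcript with the longest coding sequence instead, SMARCB1 (0.35), SMARCE1 (0.43) and ARID2 (-0.55) were no longer called, and SMARCD1 (0.61), SMARCD2 (0.64) and DNMT1 (0.59) were.

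Paralogs let near relatives be set side by side within the same libraries. Of 25 pairs among the 59 genes, 13 differed in their log2 ratios by at least 1.5-fold with an exact conditional interval that excluded 0. Of these 13, 9 still did after the length and GC fit. How often other pairs of genes differ this much was not computed, and 38.8% of all genes assessed were called singly. Genes of the KDM4 and KDM5 sets, and HDAC4, HDAC5 and HDAC7, each stand in several pairs, so the pairs are not independent. SMARCA4 and SMARCA2 lay farthest apart, by 1.62 [1.30, 1.95] on the log2 scale and 1.17 after the fit. SMARCC2 and SMARCC1 followed with 1.51 [1.35, 1.66], and 1.18 after the fit. KDM5C and KDM5A differed by 1.40 [1.26, 1.53], KDM5B and KDM5A by 0.96 [0.82, 1.10], and these became 0.92 and 0.92. KAT2A and KAT2B differed by 1.26 [1.08, 1.43], or 0.76 after the fit. EZH1 and EZH2 differed by 0.95 [0.66, 1.24], and by 1.07 after the fit. That fit used 4623 nt for EZH1 and 2639 nt for EZH2, while the EZH1 transcript with the longest coding sequence has 2501 nt.

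Some other pairs came closer after the length and GC fit, and others were already close before it. HDAC1 and HDAC2 differed by 0.89 [0.77, 1.01] before and 0.02 after the fit, with annotated transcripts of 2124 and 9874 nt. KMT2B and KMT2A differed by 1.02 [0.84, 1.20] before and 0.41 after it. The coactivators CREBBP and EP300 differed by 0.05 [-0.16, 0.26], KDM3B and KDM3A by 0.06 [-0.09, 0.22] and SETD1A and SETD1B by 0.21 [-0.05, 0.48], all within counting error. ARID1A and ARID1B, both lower, differed by 0.38 [0.13, 0.64]. The longer of the transcripts used had the lower ratio in 17 of the 25 pairs, and this share was not computed over other pairs of genes.

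**Figure D4:**
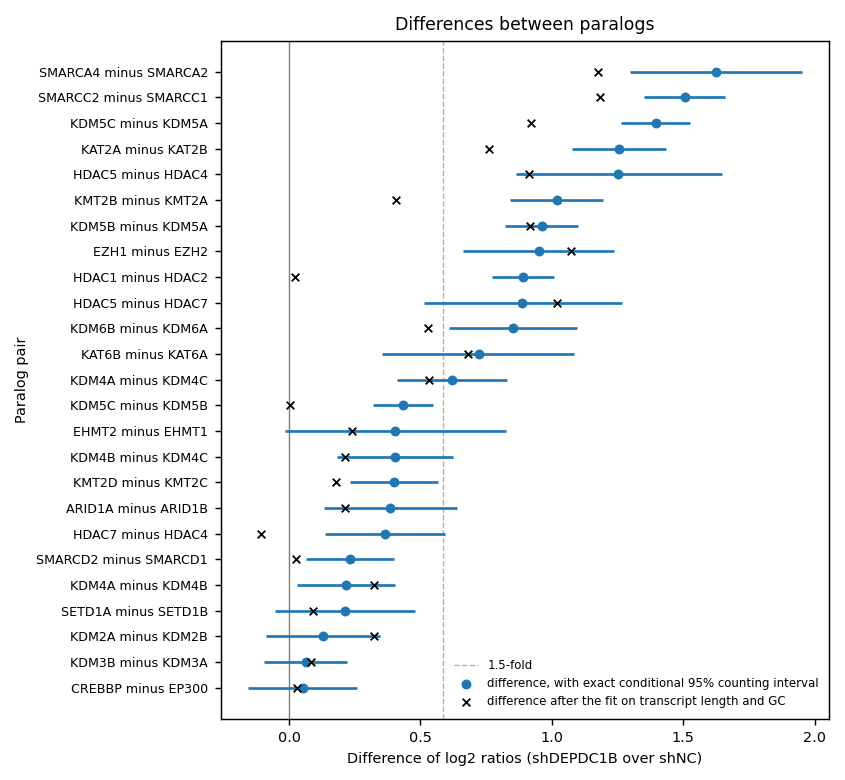
Differences between the log2 ratios (shDEPDC1B over shNC) of paralog pairs, each the higher minus the lower ratio, with exact conditional 95% counting intervals (blue) and the difference after the fit on transcript length and GC content (black crosses); the dashed line is 1.5-fold. The SMARCA and SMARCC pairs stay apart after the fit, and the cross of HDAC1 minus HDAC2 lies at 0.02.

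A wider list of 118 other chromatin genes gives the surroundings of the 59. Of these, 114 were assessed, with 19 higher, 29 lower and a median of -0.07. Over all genes assessed, 19.2% were higher and 19.6% lower. After the length and GC fit 20 of the 114 were higher and 20 lower, against 12.9% and 13.5% of all genes with a length. Of 13 other assessed SWI/SNF subunits 9 were not called: SS18 at -1.73 [-1.90, -1.56], the PBAF subunit PBRM1 at -1.03 and DPF1 at -0.65 were lower, and DPF2 at 0.67 was higher. DPF1 had only 63 and 38 counts, and its interval of [-1.27, -0.05] came close to equality. After the fit PBRM1 (-0.50) and DPF2 (0.53) were not called, and SS18 (-1.57) and DPF1 (-1.04) were still lower. Partners of the H3K4 methyltransferases on that list were named after their values were seen. MEN1 was at 0.86 [0.71, 1.01], DPY30 at 0.84 and ASH2L at 0.69, all higher, with WDR5 and CXXC1 at 0.34 and RBBP5 at -0.46 not called. After the length and GC fit DPY30, with a transcript of 708 nt, was at 0.36 and not called. In the same list of 21 genes, 8 were higher, among them the arginine methyltransferase PRMT1 at 1.26 [1.20, 1.31], and 3 lower, ASH1L at -1.51 [-1.62, -1.39], SETD7 and NSD3.

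The shares of 19.2% higher and 19.6% lower over all genes assessed also stand beside the lists that follow. Among 20 other Polycomb genes 5 were higher, with CBX8 at 0.88 [0.65, 1.10], and 2 lower, ASXL2 at -1.86, or 3.63-fold and BMI1 at -1.19. RING1, one of the higher genes, is uncertain, since its deposited value seems to average 3 gene copies. Of 22 other remodeller genes 9 were lower, with EP400, the ATPase of the complex that holds KAT5, farthest at -1.91 [-2.05, -1.77], and MBD3 was the 1 gene higher, at 0.79 [0.65, 0.93]. The scaffold TRRAP, shared by the KAT5 and SAGA complexes, was at -0.81, and at -0.30 and not called after the length and GC fit. Of 11 other acetyltransferase genes 4 were lower, with the coactivator NCOA1 at -1.78 [-1.97, -1.58], and 2 higher, with KAT8 at 0.87. On the deacetylase list the corepressor gene NCOR1 was lower, at -0.62, while the deacetylase SIRT2, whose deposited value seems to average 2 copies, was higher at 0.90. After the fit NCOR1 was at -0.03 and SIRT2 at 0.52, neither of them called. Ratios below 1, seen in 6662 of all 13850 genes assessed, held for all 6 other DNA methylation genes. Of these 3 were lower, with TET2 at -1.69 [-1.97, -1.42]. The same 3 were lower after the fit, TET2 at -1.09, while DNMT3A (0.05) and TET1 (0.11) then lay above 0. Of 8 assessed demethylases 2 were lower, with KDM7A at -1.49 [-1.79, -1.20], and none higher.

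**Figure D5:**
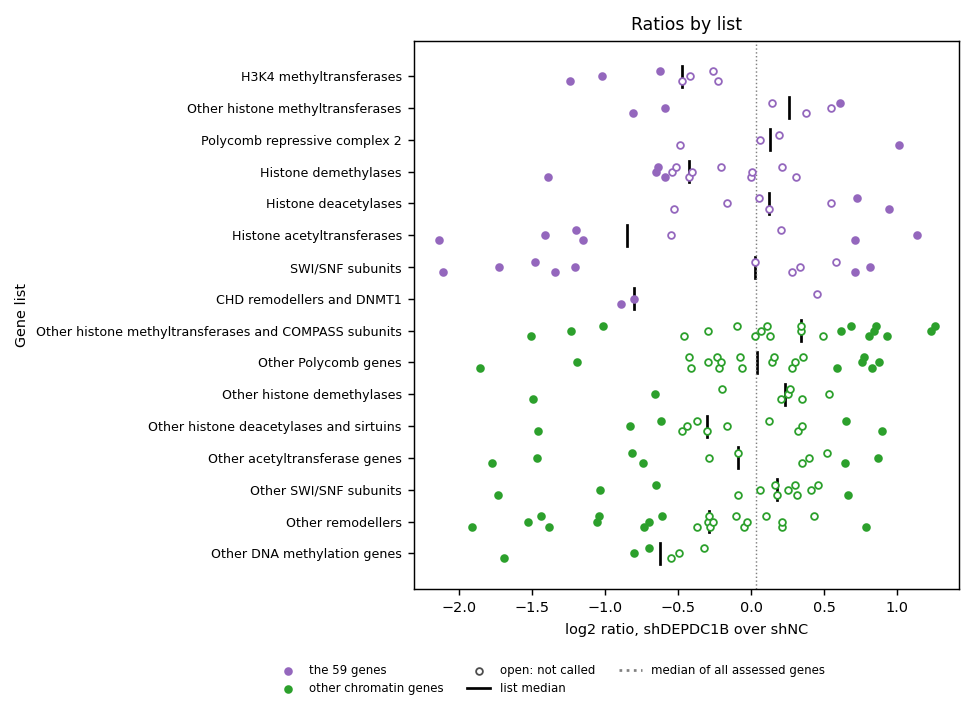
The log2 ratio (shDEPDC1B over shNC) of each gene by list, the 59 genes in purple and other assessed chromatin genes in green, filled where called at 1.5-fold, with list medians as black bars and the median of all assessed genes as a dotted line. Acetyltransferase and SWI/SNF genes of the 59 spread from -2.14 to 1.14, and the other DNA methylation genes all lie left of 0.

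Exons of 29 of the 59 genes overlap exons of a gene on the opposite strand in GENCODE 29, 15 of the 28 called genes among them. The sources used here do not say whether strand was kept, and without it reads from both genes cannot be told apart. The partner of SETDB1, CERS2, had 4128 and 5481 counts and was at 0.49 [0.43, 0.55], and that of KAT5, RNASEH2C, had 364 and 460 counts and was at 0.42 [0.22, 0.62]. The partner of SMARCC2, the abundant myosin light chain gene MYL6, had 13612 and 19724 counts and was at 0.61 [0.58, 0.65]. How many reads these pairs share was not tested.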

How the data were processed

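The deposited table holds expected counts per gene symbol for each library. Bowtie2, RSEM and build hg38 are named, per the submitters' processing notes, while their versions, the annotation and the RNA selection are not given in any source used here. The deposited expected counts were rounded to whole numbers and scaled with TMM factors from edgeR 4.0.16 (1.03 for shNC and 0.967 for shDEPDC1B) in R 4.3.3. With 1 library per group no test was run. Ratios carry exact Clopper-Pearson 95% intervals, and differences between paralogs exact conditional intervals of the odds ratio. Reads carry no molecular identifiers, so intervals cover counting error only. RSEM shares reads among similar genes by a model, an error the intervals do not hold.

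Genes were assessed at 30 counts in the higher library. Transcript length and GC content come from GENCODE 29, and 94.0% of assessed genes had them, all 59 described genes among them. Levels per kb use the same length and depend on that choice of transcript. On simulated counts, 100% of 99 genes set to differ 2.5-fold were called at 1.5-fold, among 13618 genes in that step. These counts held Poisson counting error alone, with the scaling fixed at the simulated depths. They check the calling step and say nothing of differences between replicates or library preparations.

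Genes were named by rule: all 59 genes by values or ranges, the paralogs, and in each wider list the called gene farthest from equality in each direction. One gene this rule names is not reported here. Other genes of the wider lists were named after their values were seen. The genes and lists were chosen with earlier results of these data known. Alternatives were DESeq2 1.42.0 size factors, library totals, upper-quartile factors, TMM on protein-coding genes alone, other count filters, a prior count, a 2-fold threshold and the length and GC fit. The fit on the transcript with the longest coding sequence was added after the data were seen, as were all alternatives for the wider lists.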

Additional observations from a re-analysis of the deposited data

How the results depend on the processing

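Under DESeq2 size factors, library totals, upper-quartile factors, TMM on protein-coding genes alone, other count filters and a prior count of 2, the 59 genes gave 7 or 8 higher calls, 20 to 24 lower calls and a median log2 ratio between -0.35 and -0.26. All 20 lower genes kept their call under these settings, and SETDB1 lost its call under size factors and totals, where it was at 0.56 and 0.51 against 0.61. At 2-fold, 2 genes were higher and 12 lower, and 2 and 18 of the other chromatin genes. EZH1, 1 of the 2 higher genes, fell short of 2-fold under each other scaling. Its log2 ratio was 0.958 with size factors, 0.914 with totals, 0.997 with upper-quartile factors and 0.987 with TMM on protein-coding genes alone. After the length and GC fit 10 genes were lower and the median log2 ratio -0.062, and with the transcript of the longest coding sequence 9 were lower and the median was -0.020. NSD1 changed sign in both fits, to 0.036 and 0.091. Paralog pairs called fell from 13 to 9 after the fit. The shift of the median of all genes was at most 0.10 downward, with library totals. The cause of these changes was not tested. No paired analysis was possible because each group has 1 library. Leaving out a library was not possible for the same reason.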
